A study of Mus musculus with 3 samples.

Results

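Matrix metalloproteases are zinc enzymes that cut proteins of the extracellular matrix and of the cell surface. They are made as inactive precursors, and the tissue inhibitors of metalloproteases (Timps) block the active enzymes. Timp3 differs from the other inhibitors in that it binds to the matrix. In the mouse small intestine Mmp7, or matrilysin, is best known as a product of Paneth cells, where it cuts the precursors of the antimicrobial alpha-defensins, and Mmp7 has also been described as a Wnt target in intestinal tumours.

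The genes described here are 4 metalloproteases, Mmp7, Mmp9, Mmp14 and Mmp15, and 3 inhibitors, Timp1, Timp2 and Timp3. They are 7 of the 32285 genes in the files and were picked by symbol, with their levels in these libraries already known, so every level and fold below is a description. All 7 symbols were found, and none was lost before its UMIs were counted. Genes with at least 10 counts per 1000000 UMIs (CPM) in 1 of the libraries compared are called compared, and a compared gene is called higher or lower at a ratio of 2 or more on the scale of CPM + 1.

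The study asked how loss of the Wnt transcription factor Lef1 changes intestinal cells that have lost Apc, a brake on Wnt signalling. Organoids, which are cultured epithelial bodies, were grown from the small intestine of C57BL/6 mice 7 to 8 weeks old that had received 2 doses of 2 mg tamoxifen, and were taken at passage 3 on day 6. WT mice were wild type, LApc mice were Lgr5-CreERT2;Apc fl/fl, and LApcL mice carried in addition Lef1 fl/fl. The Cre in both mutants is driven from the stem cell gene Lgr5. Analysis came 21 days after tamoxifen for WT, 29 days for LApc and 21 days for LApcL. Each genotype had 1 single-cell library, so genotype, animal, culture, library and, for LApc, days after tamoxifen cannot be told apart. No p-value was computed, and the 95% intervals cover counting error only.

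A unique molecular identifier (UMI) stands for 1 captured RNA molecule, and a barcode for 1 droplet. The libraries held 11411 (WT), 10706 (LApc) and 12068 (LApcL) barcodes, and 3195 barcodes were the same in all 3. These shared barcodes were shallow, with medians of 1483 to 2176 UMIs, and carried the endothelial marker Pecam1 at 1050 to 1076 CPM and the epithelial marker Epcam at 2.81 to 14.8 CPM. They therefore go against the label of intestinal organoids and are kept apart throughout. Deep barcodes occurred in 1 library only, had at least 10000 UMIs and at most 20% of UMIs from mitochondrial genes. There were 1208 of these in WT, 2161 in LApc and 1931 in LApcL, with medians of 32584 to 38074 UMIs, Epcam at 1192 to 1967 CPM and Pecam1 at no more than 1.60 CPM. Near the UMI minimum, 19, 37 and 79 deep barcodes had under 11000 UMIs, and 34, 31 and 75 barcodes with 9000 or more fell short of it. Levels are CPM of UMIs summed over a set of barcodes. Deep Lef1 levels were 0.961 (WT), 72.0 (LApc) and 47.8 CPM (LApcL), and those of Apc 20.0, 88.5 and 95.4 CPM. These are 3′ tags that may lie outside the floxed exons, so they do not check the deletions.

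The 7 genes lie on 7 chromosomes of the mouse build GRCm38. In the GENCODE vM21 annotation, Mmp7 spans chr9:7692090-7699585, Mmp9 chr2:164940780-164955850, Mmp14 chr14:54431612-54445364, Mmp15 chr8:95352268-95375080, Timp1 chrX:20870166-20874735 and Timp3 chr10:86300372-86349506, all on the plus strand. Timp2 spans chr11:118301069-118355740 on the minus strand. All are annotated as protein coding.

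Promoter windows, from 250 bases before to 50 after the start, were found in RefSeq (GRCm38.p6) for Mmp7, Mmp14, Mmp15, Timp1, Timp2 and Timp3. They were searched on both strands for the TCF/LEF words made of CTTTG and then AA, AT, TA or TT, the AP-1 word TGAGTCA, the TATA word TATAAA and the Sp1 word GGGCGG. No word overlapped another in these windows. Mmp7 had 1 TCF/LEF word, which starts 5 bases into the transcript and reads CTTTGAT on the other strand, 1 AP-1 word 63 bases before the start, and TATAAA at 123 and 26 bases before it. Of 32851 promoter windows of the same length, 16.9% held a TCF/LEF word, 5.20% an AP-1 word, 13.6% TATAAA and 35.7% GGGCGG. RefSeq lists a second Mmp7 start 251 bases downstream, and its window holds the same TCF/LEF word. The windows of Mmp14, Mmp15, Timp1, Timp2 and Timp3 held no TCF/LEF, AP-1 or TATA word, and each held GGGCGG or its complement. The RefSeq start of Timp2 lies 329 bases downstream of the annotated 5′ end of the gene, so its window is wholly inside the gene and the bases before that end were not searched. GC content was 39.0% in the Mmp7 window and 55.0% to 68.7% in those 5. The windows of Mmp7 and Timp3 are shown because these were the genes called different between LApcL and LApc. Capitals mark TCF/LEF, AP-1 and TATA words, and both lines read 5′ to 3′ on the plus strand. The Mmp7 line is chr9:7691840-7692119, ending 30 bases into the transcript, and the Timp3 line is chr10:86300162-86300371, ending where the annotated gene begins.

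Mmp7 promoter: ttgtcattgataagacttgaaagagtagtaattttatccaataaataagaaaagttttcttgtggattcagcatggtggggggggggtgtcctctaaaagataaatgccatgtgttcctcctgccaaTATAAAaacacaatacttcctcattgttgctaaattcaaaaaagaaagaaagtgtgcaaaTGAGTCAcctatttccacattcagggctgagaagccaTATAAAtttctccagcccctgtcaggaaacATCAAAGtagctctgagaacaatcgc
Timp3 promoter: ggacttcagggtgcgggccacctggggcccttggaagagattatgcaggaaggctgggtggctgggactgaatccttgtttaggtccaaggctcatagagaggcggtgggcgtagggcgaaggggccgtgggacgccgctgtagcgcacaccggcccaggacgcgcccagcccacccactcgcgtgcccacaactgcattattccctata

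Among the deep barcodes all 5 compared genes, Mmp7, Mmp14, Mmp15, Timp2 and Timp3, were higher in LApc than in WT. Of all 9068 genes compared, 24.0% were higher in LApc, and 9.80% were lower, among them none of the 7. Mmp7, Mmp14, Mmp15 and Timp2 were under 10 CPM in WT and were compared only through the mutants, so their direction follows from that minimum and their count is a description. In LApcL against LApc, Mmp7 was the 1 gene of 5 that was higher and Timp3 the 1 that was lower, beside 1.28% and 3.20% of all genes. In LApcL against WT, 4 of 5 were higher, with Timp3 the exception, beside 26.8% of all genes, and none of the 5 was lower, beside 10.4%. The comparisons share libraries and are not independent.

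**Figure D1:**
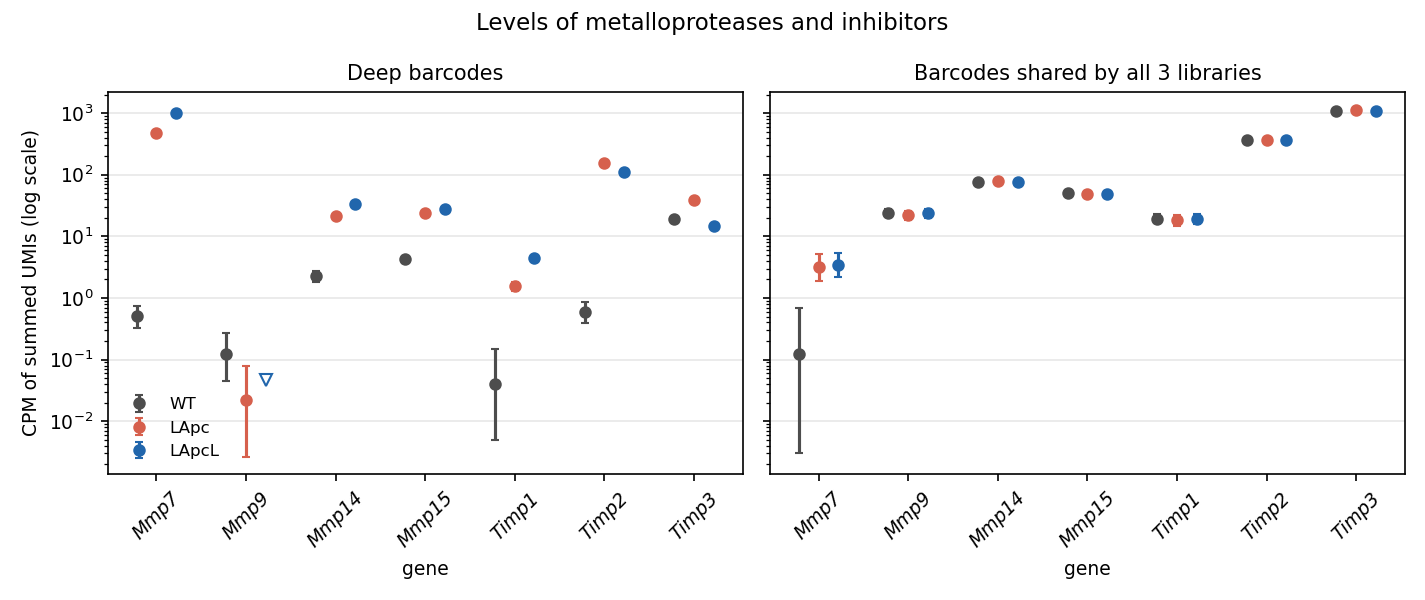
CPM on a log scale for the 7 genes in deep (left) and shared (right) barcodes of WT, LApc and LApcL, with 95% Poisson intervals; the open triangle is the upper limit for Mmp9 in LApcL, which had 0 UMIs. Mmp7 runs from 0.511 to 1003 CPM across the deep barcodes, while the 3 libraries lie on top of each other in the shared barcodes for every gene but Mmp7.

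The deep barcodes gave 25 Mmp7 UMIs for WT (0.511 CPM), 43713 for LApc (481 CPM) and 80760 for LApcL (1003 CPM). It was thus almost silent in WT and among the well detected genes in both mutants. The fold was 941 (interval 637 to 1454) for LApc over WT and 2.09 (2.06 to 2.11) for LApcL over LApc. With every deep barcode thinned to 10000 UMIs, 0.58% of WT, 68.5% of LApc and 93.3% of LApcL barcodes had an Mmp7 UMI. The shares follow the order of the levels, and most barcodes of both mutants had an Mmp7 UMI. How many of these UMIs are free RNA was not tested. The UMIs were unevenly spread. At that depth the median barcode had 2 UMIs in LApc and 5 in LApcL, the highest had 265 and 335, and the tenth of barcodes with most Mmp7 held 64.1% of its UMIs in LApc and 53.5% in LApcL.

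**Figure D2:**
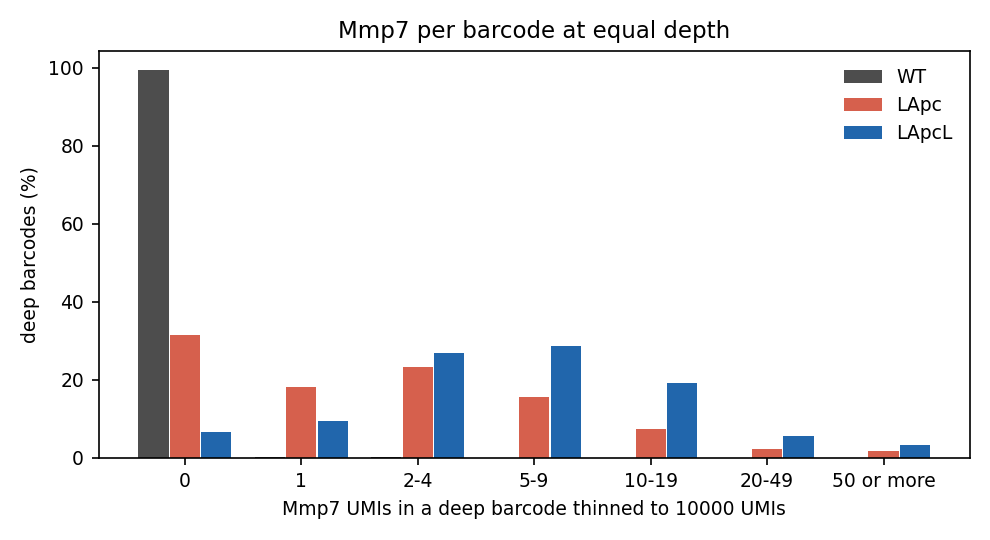
Percent of deep barcodes (y axis) by their number of Mmp7 UMIs after thinning to 10000 UMIs (x axis, classes of unequal width) in WT, LApc and LApcL. In WT 99.4% of barcodes had none, in LApc 31.5% and in LApcL 6.73%; barcodes with 50 or more made up 1.80% of LApc and 3.37% of LApcL.

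In LApc and LApcL, clusters of deep barcodes, made within each library without the genes of this report, place the highest Mmp7 in Paneth-like cells. These clusters, 31 barcodes in LApc and 85 in LApcL, were led by defensin genes and carried all 7 Paneth markers among their leading genes, with 4 of 7 goblet markers beside them. Mmp7 reached 10478 CPM (10269 to 10690) in the LApc cluster and 9418 CPM (9295 to 9542) in the LApcL cluster. The level within Paneth-like cells was thus no higher in LApcL, at 0.90 times LApc (0.88 to 0.92). They held 21.9% of the Mmp7 UMIs of LApc and 27.7% of those of LApcL. The remaining 4 clusters of LApc lay between 280 and 428 CPM, and in LApcL the other 3 lay at 155, 710 and 837 CPM, the lowest in a shallow cluster led by histone genes. Without the Paneth-like clusters Mmp7 was at 380 CPM in LApc and 748 in LApcL, a fold of 1.97 (1.94 to 2.00) that just misses the call. The summed level of the 7 Paneth markers over all deep barcodes moved in the same direction, from 234 (WT) to 1221 (LApc) and 2978 CPM (LApcL). Outside the Paneth-like clusters that sum came to 350 (LApc) and 168 CPM (LApcL), the opposite order to Mmp7.

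The 25 WT Mmp7 UMIs came from 11 barcodes. Of these UMIs, 15 were in 8 of the 37 barcodes of an enteroendocrine-like cluster (15.9 CPM, 8.92 to 26.3) and 9 in 2 of 258 barcodes of a cluster led by goblet genes. The other 3 WT clusters had 1 UMI together. In that goblet-led cluster 3 of 7 Paneth and 6 of 7 goblet markers were among the leading genes, so it met the naming rule for both classes. Its Mmp7 level was 0.961 CPM (0.439 to 1.82). At the finer resolution this cluster came apart, with 7 of the 9 UMIs in a stem-like cluster of 228 barcodes led by Olfm4. The other 2 were in a cluster of 25 barcodes with 6 of 7 goblet and 4 of 7 Paneth markers, at 2.29 CPM (0.277 to 8.27).

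Each library held a cluster led by cell-cycle genes, so these clusters can be set side by side. The clusters named proliferating/TA-like (TA for transit amplifying, meaning cells that divide after leaving the stem cell pool) had 210 WT, 268 LApc and 724 LApcL barcodes. Mmp7 was at 0.106 CPM (1 UMI), 280 and 710 CPM in them, and LApcL was 2.54 times LApc (2.46 to 2.62). The 7 Paneth markers summed to 153 (WT), 34.6 (LApc) and 215 CPM (LApcL) in these clusters. The LApcL cluster was the more mixed of the 3. At a finer resolution 58.1% of its barcodes went to a cluster of 431 led by Sgo2a, Esco2 and Nusap1, and 41.9% to one of 370 led by Basp1, Ly6c1 and Wfdc18, and neither kept the name. In WT and LApc 89.0% and 90.7% of barcodes stayed in 1 cluster, of 187 and 251 barcodes. Over these finer cell-cycle clusters, taken after the values were seen as those with most proliferation marker UMIs, Mmp7 was at 0 UMIs, 294 CPM and 652 CPM, and LApcL was 2.21 times LApc (2.14 to 2.29). The Paneth marker sums there were 157, 32.3 and 243 CPM, and their part in the folds was not tested. The WT proliferating/TA-like cluster also carried 9 enterocyte markers at a sum of 7682 CPM, against 7.84 and 5.66 CPM in those of LApc and LApcL, and their part in the WT comparison was not tested.

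**Figure D3:**
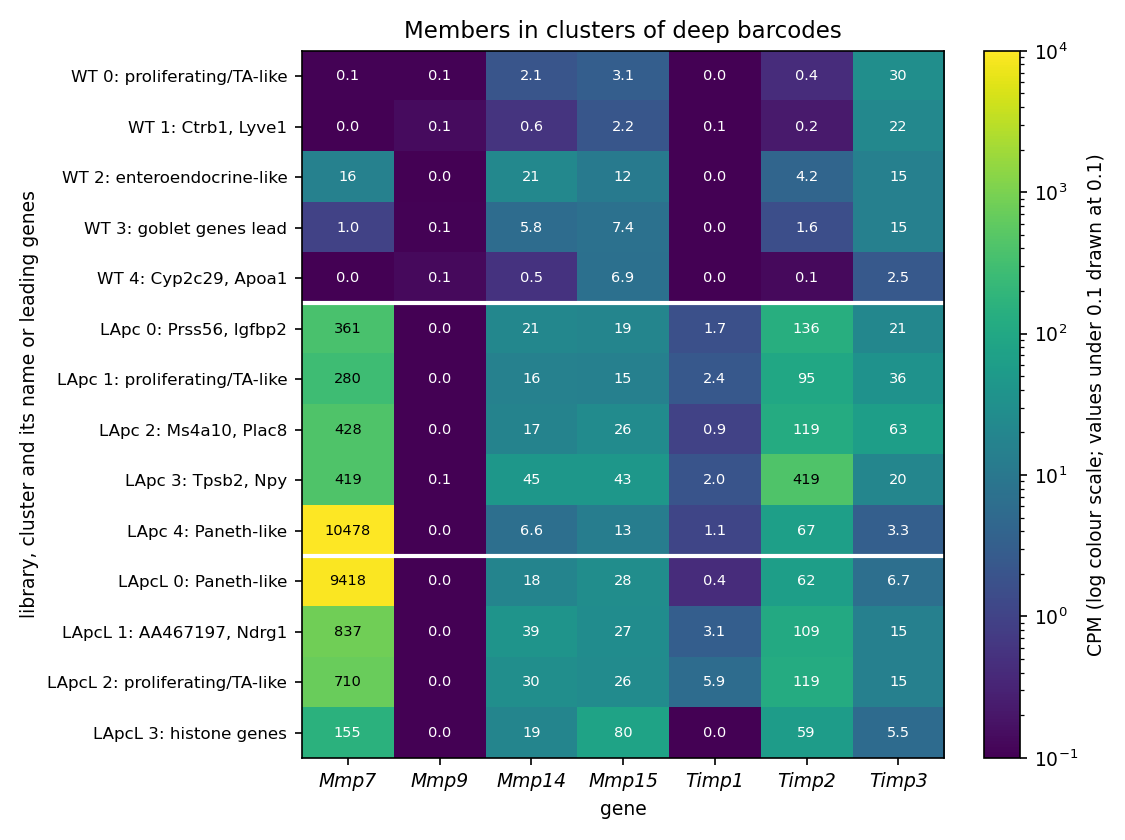
CPM of each gene (columns) in each cluster of deep barcodes (rows, named by class or leading genes, grouped by library), on a log colour scale with the value printed. The Paneth-like clusters stand out for Mmp7 at 10478 and 9418 CPM, and the Tpsb2 and Npy cluster of LApc for Timp2 at 419 CPM.

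Within LApc and LApcL the genes most like Mmp7 across deep barcodes were Spink4, Ang4, Rnase4, Defa24 and Spint2, by the lower of the 2 within-library Pearson correlations of log counts per 10000 UMIs. These r values were 0.42, 0.40, 0.38, 0.38 and 0.36 over 2161 and 1931 barcodes, out of 2828 genes considered. Ang4 and Defa24 are antimicrobial products of Paneth cells, and Spint2 is a membrane inhibitor of serine proteases. The Wnt target Axin2 had r of -0.09 in LApc and -0.25 in LApcL with Mmp7, and Timp2 had 0.04 in both. The barcodes of 1 library share their culture and their range of depth, and these values describe those libraries.

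Mmp14 and Mmp15 are membrane-bound metalloproteases, and Mmp14 is known to activate the precursor of Mmp2 together with Timp2. Deep Mmp14 levels were 2.25 (WT), 21.5 (LApc) and 32.9 CPM (LApcL). It was low in WT and higher in both mutants. LApc was 9.54 times WT (7.87 to 11.7), and LApcL was 1.53 times LApc (1.45 to 1.63), which is below the call. Mmp15 stood at 4.25, 23.9 and 28.2 CPM, a fold of 5.61 (4.87 to 6.5) and then of 1.18 (1.11 to 1.25). At 10000 UMIs, 2.57%, 15.7% and 27.3% of deep barcodes had an Mmp14 UMI and 4.22%, 19.8% and 25.3% an Mmp15 UMI. Mmp2 itself had 0, 0 and 1 UMI among all deep WT, LApc and LApcL barcodes.

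By cluster, in LApc and LApcL the 2 membrane proteases were not highest in Paneth-like cells, unlike Mmp7. Mmp14 was highest in a LApc cluster of 317 barcodes led by Tpsb2 and Npy, at 44.8 CPM (41.0 to 48.9), and was at 6.58 CPM (2.42 to 14.3) in the Paneth-like cluster of that library. In WT it was highest in the enteroendocrine-like cluster, at 21.2 CPM (13.0 to 32.8), and at 0.530 CPM in the cluster led by Cyp2c29 and Apoa1. Mmp15 was highest in the histone-led LApcL cluster, at 79.6 CPM (68.6 to 91.8). In WT at the finer resolution Mmp15 was highest in the 25 barcodes with goblet and Paneth markers, at 18.3 CPM (10.5 to 29.7). The enteroendocrine-like cluster followed at 11.7 CPM (5.83 to 20.9), with overlapping intervals. In the proliferating/TA-like clusters Mmp14 was at 2.12, 15.8 and 29.7 CPM and Mmp15 at 3.08, 14.9 and 26.2 CPM in WT, LApc and LApcL, the same order as over all deep barcodes. There LApcL exceeded LApc by 1.88-fold (1.64 to 2.16) for Mmp14 and by 1.76-fold (1.53 to 2.04) for Mmp15. In the finer cell-cycle clusters the folds were 1.72 (1.48 to 1.99) and 1.30 (1.11 to 1.52), and the Basp1-led LApcL cluster had Mmp15 at 38.2 CPM against 18.9 CPM in the cell-cycle one.

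Mmp9, or gelatinase B, was all but absent from the organoid epithelium. Of its UMIs, 6 were found over the deep barcodes of WT, 2 over those of LApc and 0 over those of LApcL. For LApcL a count of 0 over 1931 barcodes allows a share of up to 0.155% with a UMI by a floor of 3 counts, or 0.191% by the exact interval.

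The inhibitors went in different directions. The deep barcodes gave 29 Timp2 UMIs for WT (0.593 CPM), 14221 for LApc (157 CPM) and 8951 for LApcL (111 CPM). It thus had the pattern of Mmp7 against WT but not between the mutants: LApc was 264 times WT (184 to 394), and LApcL was 0.71 times LApc (0.69 to 0.73). At 10000 UMIs, 0.66% of WT, 67.2% of LApc and 61.3% of LApcL barcodes had a Timp2 UMI. It was highest in the Tpsb2 and Npy cluster of LApc at 419 CPM (407 to 431), which held 32.8% of its LApc UMIs, and lay at 66.9 to 136 CPM in the other LApc clusters. In LApcL it lay at 59.1 to 119 CPM in every cluster. Within the proliferating/TA-like clusters Timp2 was not lower in LApcL, with 94.7 CPM in LApc and 119 in LApcL, a fold of 1.26 (1.18 to 1.33). In the finer cell-cycle clusters the levels were 97.3 CPM (92.5 to 102) and 105 CPM (101 to 109), a fold of 1.08 (1.01 to 1.15).

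Mmp7 and Timp2 were often found in the same barcode, since both were frequent. Of LApc barcodes with an Mmp7 UMI at 10000 UMIs, 68.2% had a Timp2 UMI, against 65.2% of those without, and in LApcL the shares were 61.5% and 57.7%. The genes most like Timp2 were S100a6, Fxyd3, Tmem176b, Prdx1 and Wnt6, with lower r values of 0.31, 0.30, 0.29, 0.28 and 0.28.

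Timp3 was the member called lower in LApcL than in LApc. Its deep levels were 18.96 (WT), 39.4 (LApc) and 14.5 CPM (LApcL). LApc was the high library of the 3, at 2.08 times WT (1.93 to 2.24), a call that held in 6 of 11 other settings. The direction was the same in all of them. In addition, LApcL was 0.37 times LApc (0.34 to 0.39) and 0.77 times WT (0.70 to 0.84). The shares of barcodes at 10000 UMIs were 12.2%, 18.6% and 8.70%. In LApc 61.4% of Timp3 UMIs came from a cluster of 763 barcodes led by Ms4a10 and Plac8, at 63.2 CPM (60.6 to 65.9). In WT it was at 29.7 CPM in the proliferating/TA-like cluster and at 2.52 CPM in the cluster led by the enterocyte genes Cyp2c29, Apoa1 and Lct. Within the proliferating/TA-like clusters LApc was 1.21 times WT (1.05 to 1.40), and the call of Timp3 against WT was lost there, while LApcL stood at 0.42 times LApc (0.38 to 0.47). In the finer cell-cycle clusters LApcL was 0.31 times LApc (0.27 to 0.36) and 0.37 times WT (0.32 to 0.44), past the call against WT, while in the proliferating/TA-like clusters it was 0.51 times WT (0.44 to 0.59), which was not called. Enterocyte markers summed to 21749 CPM in all deep WT barcodes (9 of 9 above 3 UMIs), 11.3 CPM in LApc and 8.56 CPM in LApcL.

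Timp1 was low in all deep barcodes, at 0.041 (WT, 2 UMIs), 1.54 (LApc, 140 UMIs) and 4.38 CPM (LApcL, 353 UMIs). It stayed under 10 CPM and was not compared. LApcL was 2.85 times LApc (2.33 to 3.49), and LApc was 37.7 times WT (10.2 to 314) on 2 WT UMIs. Of its LApcL UMIs, 70.0% were in the proliferating/TA-like cluster, which held 52.4% of all deep LApcL UMIs. Timp1 was at 5.85 CPM (5.14 to 6.63) there and at 3.13 CPM (2.56 to 3.79) in the cluster of 955 barcodes. At the finer resolution 38.0% of its UMIs were in the cell-cycle cluster and 38.8% in the Basp1-led one. These clusters held 32.99% and 24.99% of all deep LApcL UMIs. Timp1 was at 5.05 CPM (4.23 to 5.98) and 6.81 CPM (5.72 to 8.05) in them, with overlapping intervals.

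The wider lists are counted beside the same shares of all genes, 24.0% higher and 9.80% lower for LApc against WT and 1.28% and 3.20% for LApcL against LApc. A list gene under 10 CPM in 1 library is compared only through the other, where it cannot be called lower. Examples below are Cd44, Pcsk5, Lama5 and Lamb1, and the counts are a description. Mmp11, Mmp2 and Serpinb5 fall outside the rule for named genes and are given after their values were seen. Of 17 other metalloproteases, Mmp11 reached 11.3 CPM in deep LApcL and was at 9.76 CPM in LApc and 0.082 CPM in WT, and the remaining 16 stayed under 4 CPM in every deep set. Of 14 Adam and Adamts proteases, 3 were compared between LApc and WT, and 1, the sheddase Adam10, was higher, at 113 against 38.4 CPM. None of 4 differed by 2-fold between the mutants. Of 15 activators and partners, 5 of 10 compared were higher in LApc than WT and 1 was lower. Bsg, a membrane protein known to induce metalloproteases, rose from 586 to 2291 CPM, and Cd44, a cell surface docking site for Mmp7, from 6.54 to 50.4 CPM. The convertase Pcsk5 was the lower one, at 68.6 CPM in WT and 2.47 in LApc. In LApcL against LApc, 1 of 9 was higher, Spp1, and 2 were lower, Plat and Pcsk6, the latter a convertase and Plat the tissue plasminogen activator. Of 16 matrix and adhesion substrates, 8 of 11 compared were higher in LApc than WT, with Lama5, a laminin chain of epithelial basement membranes, at 0.429 and 45.8 CPM, and 1 of 11 was lower in LApcL than LApc, Lamb1, at 10.6 and 4.51 CPM. Of 8 other inhibitors, 1 of 3 compared was higher in LApc than WT, Serpinb5, and none of 3 differed by 2-fold between the mutants.

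The shared barcodes gave another picture of the same genes. There 5 of the 6 compared genes, Mmp9, Mmp14, Timp1, Timp2 and Timp3, were higher than in the deep barcodes of the same library in all 3 libraries, beside 21.1% of all genes, and none was lower in all 3, beside 12.2%. Mmp9 and Timp1 were at 10 CPM or more only in shared barcodes, so they could not have been called lower there. In WT the same limit held for Mmp14, Mmp15 and Timp2, at 2.25, 4.25 and 0.593 CPM in deep barcodes. Of the 6 genes, only Timp3 could thus have been lower in all 3 libraries, and these counts are a description. Timp3 stood at 1101, 1122 and 1097 CPM in WT, LApc and LApcL, which is 58.1, 28.5 and 75.5 times the deep level. Timp2 stood at 365, 368 and 367 CPM. Timp3 and Timp2 were thus far above the epithelial level in WT, but Timp2 was only 2.35 times the deep level in LApc and 3.30 times in LApcL. Mmp9 was at 23.9, 21.95 and 23.9 CPM, in LApcL at least 642-fold above the deep barcodes by a floor of 3 UMIs (515-fold by the lower limit of the exact interval). Mmp14 was at 75.3, 79.2 and 76.7 CPM, Mmp15 at 51.3, 48.9 and 48.2 CPM, and Timp1 at 19.4, 18.4 and 19.3 CPM. Mmp15 missed the call in LApcL, where the shared barcodes held 1.71 times the deep level. Mmp7 was at 0.122, 3.24 and 3.49 CPM on 1, 18 and 21 UMIs, in LApc 149 times and in LApcL 288 times below the deep level.

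The levels of the shared barcodes were nearly the same in all 3 libraries. None of the 6 compared genes differed 2-fold from WT in LApc or LApcL, beside 0.0820% of 8535 genes, and their folds against WT ran from 0.92 to 1.05. Each of these intervals includes 1. Single barcodes also carried the same genes from library to library. Of the 104 shared barcodes with an Mmp9 UMI in WT, 53.8% had one in LApc and 55.8% in LApcL, against 0.58% and 0.65% of the rest. For Timp2 the shares in LApc were 64.1% and 13.2%. The 3 libraries therefore do not give 3 independent measurements of these barcodes.

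Equal depth gave the same contrast. At 1000 UMIs per barcode, which left out 360, 924 and 797 shallower shared barcodes, a Timp3 UMI was found in 56.2%, 56.6% and 55.4% of shared and in 1.82%, 2.64% and 1.24% of deep barcodes of WT, LApc and LApcL. Timp2 was found in 24.7%, 27.7% and 27.1% of shared barcodes, and in 0 of 1208 WT (which allows up to 0.248% by the floor of 3 counts, or 0.305% by the exact interval), 15.8% of LApc and 9.32% of LApcL deep barcodes. Mmp7 ran the other way, with 0.035%, 0.40% and 0.42% of shared and 0.25%, 24.1% and 46.0% of deep barcodes. The few Mmp7 UMIs of the shared barcodes were fewest in WT, as in the deep barcodes, while between the mutants LApcL was 1.08 times LApc (0.55 to 2.14). Shared Epcam was at 2.81, 9.18 and 14.8 CPM, and whether either is free RNA was not tested.

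**Figure D4:**
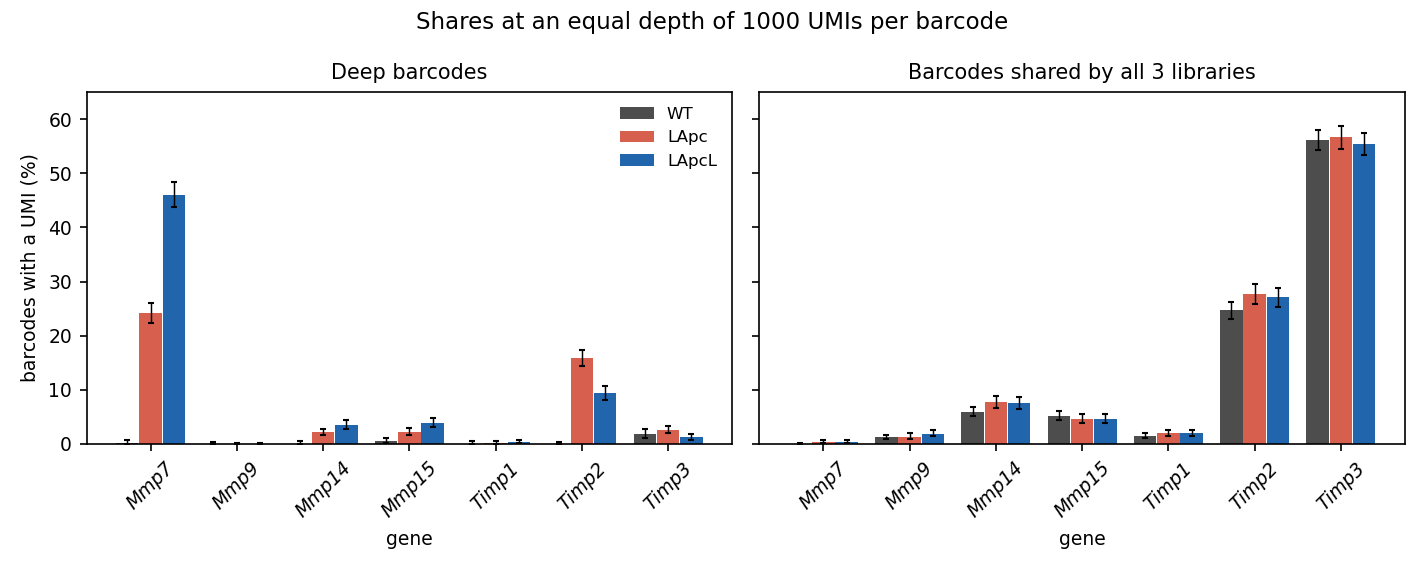
Percent of barcodes with a UMI of each gene at 1000 UMIs per barcode in deep (left) and shared (right) barcodes of WT, LApc and LApcL, with 95% Clopper-Pearson intervals. Mmp7 bars of 24.1% and 46.0% stand in the deep LApc and LApcL barcodes, and Timp3 bars of 55.4% to 56.6% in the shared barcodes of every library.

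Within the shared barcodes the genes differed by cluster. Clusters were made in WT and carried to LApc and LApcL by barcode, so the cluster limits are the same 3 times over. Mmp9 was found almost wholly in a cluster of 526 barcodes led by Marco, Mrc1 and Ccl20, at 112, 104 and 115 CPM in WT, LApc and LApcL, with 95.9%, 97.5% and 97.9% of its UMIs. In every other cluster it had at most 4 UMIs. At a finer resolution Mmp9 was at 295, 271 and 315 CPM in 169 barcodes led by Ccl20, Coch and Madcam1, and at 15.0, 15.6 and 8.44 CPM in 386 barcodes led by Marco and Mrc1, so it belonged mostly to the former.

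Mmp14 and Mmp15 lay in different clusters. Of the 4 large clusters, Mmp14 was highest in the Marco and Ccl20 cluster, at 166, 210 and 182 CPM, and Mmp15 was at 4.18, 3.51 and 4.07 CPM there. In a cluster of 552 barcodes led by Chst4 and Ackr1, Mmp15 reached 119, 107 and 103 CPM and Mmp14 50.8, 40.1 and 44.5 CPM. That cluster held 5 of 6 high endothelial venule markers and all 4 haemoglobin markers among its leading genes, and met the naming rule for both classes, so it is called by its leading genes. In the capillary endothelial-like cluster of 1514 barcodes Mmp15 was at 63.0, 64.8 and 61.7 CPM, and in the Ackr4-led cluster of 570 at 3.19, 2.81 and 6.94 CPM. Mmp15 was thus low in the Marco and Ackr4 clusters and higher in the other two, in all 3 libraries.

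Timp2 ranked the 4 large clusters in the order of Mmp14 in all 3 libraries, and Timp3 and Timp1 did not. Timp2 was highest in the Marco and Ccl20 cluster, at 709, 725 and 722 CPM, and lowest of the 4 large clusters in the capillary endothelial-like one, at 110, 109 and 95.1 CPM. Timp3 was at 1917, 1917 and 1863 CPM in the Marco and Ccl20 cluster and lowest of these 4 in the Chst4 and Ackr1 cluster, at 404, 458 and 428 CPM. A cluster of 22 barcodes with mural and fibroblast markers stood at 2088, 2264 and 2118 CPM of Timp3, with intervals that overlap those of the Marco and Ccl20 cluster. At the coarser resolution Timp1 was highest in the Chst4 and Ackr1 cluster, at 37.7, 31.3 and 33.4 CPM, with intervals that overlap those of the Marco and Ccl20 cluster at 25.1, 27.2 and 23.6 CPM. At the finer resolution this order was kept in WT and not in LApc or LApcL. The 169 barcodes led by Ccl20, Coch and Madcam1 had Timp1 at 36.2, 48.2 and 54.1 CPM, and the 540 of the Chst4 and Ackr1 cluster at 37.4, 31.9 and 34.1 CPM, with overlapping intervals.

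**Figure D5:**
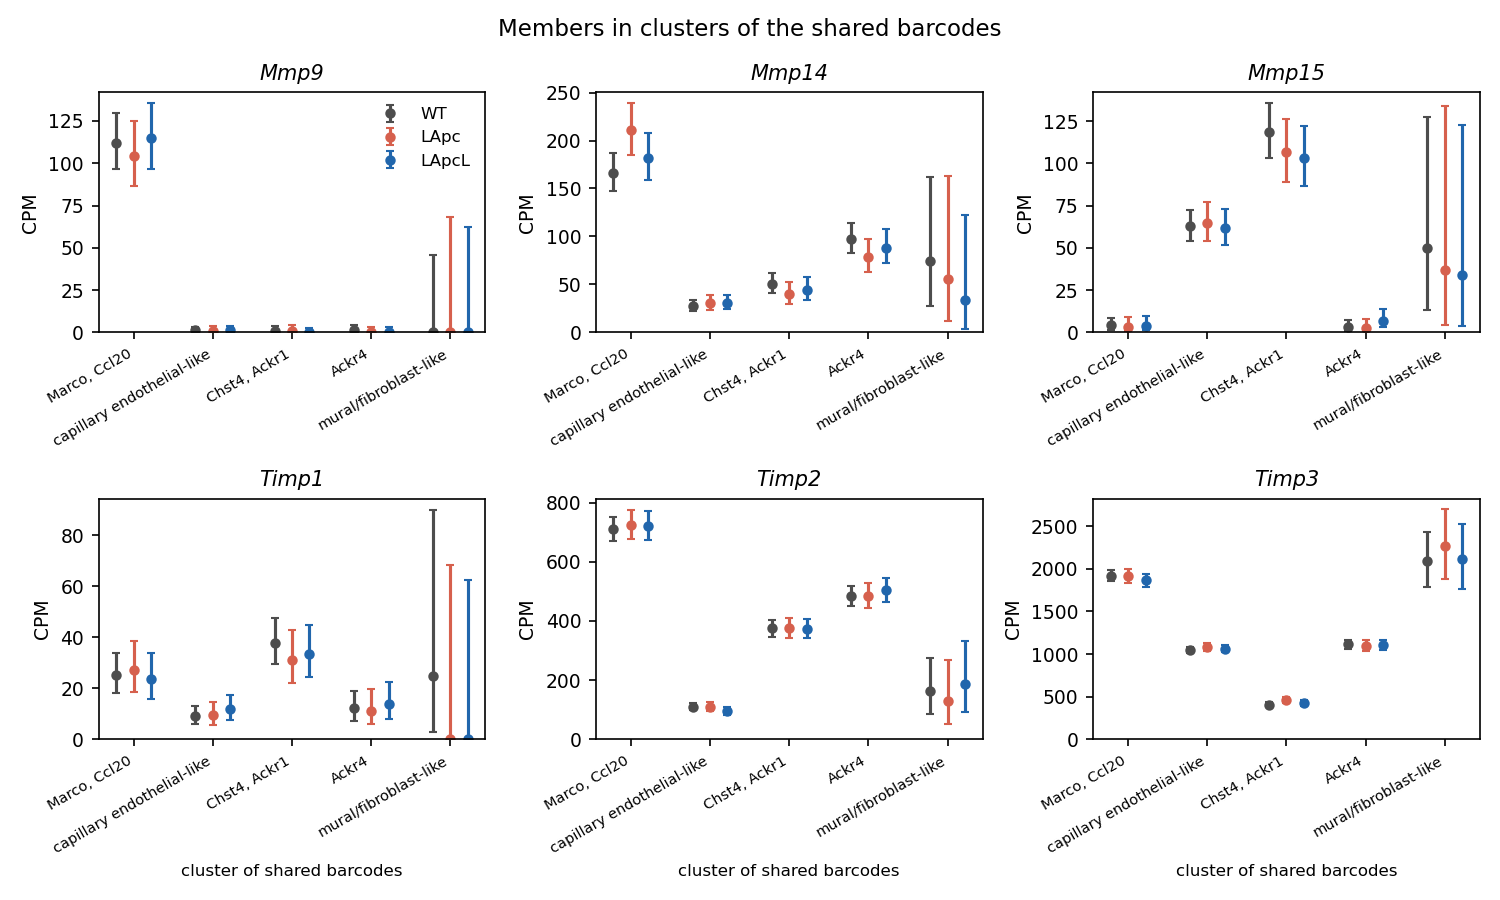
CPM of 6 genes (1 panel each, own y axis from 0) in the 5 clusters of shared barcodes on the x axis, named by class or leading genes, with 95% Poisson intervals for WT, LApc and LApcL; a cluster of 11 proliferating barcodes is not drawn. Mmp9, Mmp14 and Timp2 peak in the Marco and Ccl20 cluster and Mmp15 in the Chst4 and Ackr1 cluster, and the 3 libraries overlap.

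The wider lists were not alike in the shared barcodes. Of 9 Adam and Adamts genes compared, 9 were higher than in deep barcodes in WT and 8 in each mutant, beside 33.8% (WT), 22.6% (LApc) and 23.3% (LApcL) of all genes compared. Of all genes, 20.1%, 24.7% and 25.9% were lower in shared barcodes. Adamts1 was at 736 to 755 CPM in shared and 2.93 to 7.01 CPM in deep barcodes. Timp4, the remaining member of the Timp family, was at 127 to 132 CPM in shared and at most 0.075 CPM in deep barcodes. Of the 8 other inhibitors, Timp4 among them, 4 of 6 compared were higher and 2 lower in WT, 4 and 3 of 7 in LApc, and 3 and 2 of 5 in LApcL. The serine protease inhibitor Spint1, a gene of epithelia, ran the other way at 0.489 to 0.540 and 60.3 to 89.7 CPM. A list gene under 10 CPM in 1 barcode set was compared only through the other set, where it could not be called lower. That was so for Adamts1, Timp4 and Spint1, and the counts of the wider lists here are a description. Of the activators and partners, 4 of 9 compared were higher and 3 lower than in deep barcodes in WT, 2 and 4 of 10 in LApc, and 3 and 4 of 10 in LApcL. The higher counts of the mutants lie near the shares of all genes. Of the matrix and adhesion substrates, 11 of 14 compared were higher and 2 lower in WT, and 10 and 3 of 15 in each mutant, so that their lower counts are not above the shares of all genes. Of the 17 other metalloproteases, 0 were compared in WT, 0 in LApc and 1 in LApcL, which was Mmp11. Mmp11 was lower in shared barcodes and was compared only through the deep ones, so it could not have been called higher. The call thus gives no result for the rest of that list.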

How the data were processed

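Single-cell libraries of WT, LApc and LApcL organoids (1 each) were prepared by the authors on the 10x 3′ platform, and the authors deposited unnormalised UMI counts per gene and barcode. The matrix headers name Cell Ranger 6.0.1, the submitters' processing notes Cell Ranger 2.1.1, with builds mm10 and GRCm38. The files list barcodes with 500 or more UMIs. Counts were used as deposited, in Python 3.11.15 with scanpy 1.11.5. Deep barcodes occurred in 1 library, with at least 10000 UMIs and at most 20% from 13 mitochondrial genes. Shared barcodes occurred in all 3, with no further filter. Barcodes outside both sets, 5350 to 7008 a library, appear only among the results singled out for a closer look. UMIs were summed and scaled to CPM. Calls used log2 of CPM + 1 against CPM + 1, a threshold of 1, and genes with at least 10 CPM. Folds are plain CPM ratios. Intervals were exact (Poisson, conditional binomial, Clopper-Pearson) at 95%, and PCR and sampling of animals or cultures are outside them. Shares were taken after thinning without replacement. Clusters used 2000 variable genes without the listed genes, 20 components, 20 neighbours and Leiden resolution 0.2. A class name needed 3 markers among the top 50 genes and 1 among the top 10. No doublets were removed in the values reported. With no replicates no test between genotypes was possible. The 7 genes, the wider lists and the markers were chosen with earlier results of these data known. Named genes were the 7, list genes of at least 50 CPM in 1 set that a result turned on, and the 5 genes most like Mmp7 and Timp2. Sums were also simulated as Poisson counts, with 200 genes altered. For LApc against WT the intervals covered the true ratio for 95.2% of 7321 genes. The other shares were 95.1% of 8397 (LApcL against LApc) and 95.4% of 7321 (LApcL against WT). Coverage near 95% is built into such counts, and variation between barcodes or cultures was not simulated.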

Additional observations from a re-analysis of the deposited data

Results flagged for a closer look

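The barcodes outside the deep and shared sets entered no comparison above, and in them several genes lay above the WT level with intervals that do not overlap. Mmp7 was at 143 CPM in LApc and 233 CPM in LApcL, against 0.233 CPM in WT. Mmp14 was at 13.0 and 19.3 CPM, against 1.79 CPM, and Mmp15 at 39.4 and 51.2 CPM, against 9.40 CPM. Timp2 was at 57.0 and 52.2 CPM, against 1.76 CPM. Timp3 was at 41.9 CPM in LApc, against 21.99 CPM in WT, and Timp1 at 0.783 CPM in LApcL, against 0.133 CPM. The order of the libraries was that of the deep barcodes for all 6 genes named.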

How the results depend on the processing

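Over 114 recomputed counts of called genes, 109 stayed within 1.5 times the reported count. Of 525 recomputed log2 ratios, 138 left the counting interval of the reported value, and no called one changed sign. Without thinning, 16 of 21 shares of deep barcodes left their interval, and at the finer resolution 7 of 21 highest cluster levels did. With the mean over barcodes of each barcode's CPM, 3 genes in place of 5 were higher in shared than deep barcodes in all 3 libraries, since Mmp14 in LApcL and Timp2 in LApc fell under the threshold. Without a filter on low values, 2 genes in place of 1 were higher in LApcL than LApc (Timp1 was added), and 1 in place of 0 differed within the shared barcodes (Mmp7); fewer UMIs stand behind such genes. Without the Paneth-like clusters, an alternative added after seeing the data, 0 genes were higher in LApcL than LApc (Mmp7, log2 ratio 0.98). In the finer cell-cycle clusters, also added later, 1 gene in place of 0 was lower in LApcL than WT (Timp3, -1.35). Timp3 in LApc against WT was past the threshold in 6 of 11 other settings (0.64 to 1.14). Mmp7 (1.01 to 1.18) and Timp3 (-1.45 to -1.01) in LApcL against LApc were past it in all 11. Median-of-ratios scaling moved LApc against WT by 0.39 and LApcL against WT by 0.33 on the log2 scale, and within shared against deep by 0.51 in WT. Removing 110, 185 and 186 likely doublets changed the counts by no more than 1.5 times; Scrublet's own threshold marked 9, 3 and 7. No paired analysis was possible because each genotype had 1 library, and for the same reason no replicate could be left out.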

Other observations

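Mmp20, the metalloprotease that the annotation places before Mmp7 on the same strand (chr9:7628231-7674979), was followed because it was the next highest of the other metalloproteases after Mmp11 in the deep barcodes of LApc and LApcL, a choice made after its values were seen. Its deep levels were 0.205 (WT, 10 UMIs), 1.42 (LApc, 129 UMIs) and 3.65 CPM (LApcL, 294 UMIs). The Paneth-like cluster of LApc had 43.9 CPM (31.3 to 59.7), that of LApcL 37.1 CPM (29.8 to 45.7), and elsewhere Mmp20 was at 0.989 and 2.64 CPM. It had 0 UMIs in the shared barcodes of every library. Its UMIs per 1000 Mmp7 UMIs were 4.19 and 2.61 inside and outside the Paneth-like cluster of LApc, and 3.94 and 3.53 in LApcL. In WT the same ratio was 400.0, on 10 Mmp20 and 25 Mmp7 UMIs. Whether these UMIs come from Mmp20 transcripts or from reads assigned between neighbouring genes was not tested.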
